A study of Mus musculus with 48 samples.

Results

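Gain of a *Nanog*-GFP reporter was followed within OKMS reprogramming by comparing cells of a single surface-marker gate with and without GFP. The 3NG- and 3NG+ libraries were chosen by their labels alone, as 3 libraries each, which makes 6 of the 48 libraries of the series, and 15630 of the 24264 transcripts counted had enough reads to be tested. Both groups came from mouse embryonic fibroblasts (MEFs) that carry the OKMS cassette, a polycistronic transgene expressing *Oct4*, *Klf4*, *c-Myc*, and *Sox2* in that order, with *Klf4* in an N-terminally short form, together with an mOrange reporter. The cassette is induced by doxycycline through an rtTA driven by a CAG promoter. It was targeted to the *Sp3* locus of TNG embryonic stem cells (ESCs), in which 1 *Nanog* allele expresses GFP and only the other is intact (*Nanog* G/+). The MEFs were taken from chimeric embryos made with these ESCs and were diluted with wild-type MEFs, and both groups were cultured with doxycycline and vitamin C. Cells in gate 3 were E-CAD+, CD44 low, and ICAM1 high, and NG- or NG+ denotes the absence or presence of *Nanog*-GFP. The series design gives day 10 for the sort, whereas the culture protocol gives 10 or 15 days, and each sample was a pool of 20000 to 100000 sorted cells. Other groups used were MKOS 3NG- and 3NG+ cells (3 libraries each), sorted in the same way from MEFs with another cassette. That cassette has the order *c-Myc*, *Klf4*, *Oct4*, and *Sox2*. Its *Klf4* is the long form, which the paper reports to give more KLF4 protein than the short form. With 2 libraries each, OKMS MEFs, OKMS iPSCs without doxycycline (-dox) or in 2i medium, and TNG OKMS ESCs were also used. OKMS E-CAD+ 2NG- cells, which are ICAM1 low, had 3 libraries, as did OKMS E-CAD- 2NG- and E-CAD- 3NG- cells, which enter the plot of summed levels alone.

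*Nanog* encodes a homeodomain transcription factor of the naive pluripotency network, in which *Esrrb*, *Klf2*, *Tbx3*, *Tfcp2l1*, and other factors sustain one another together with OCT4 and SOX2. In fibroblasts these genes are silent, and many of them are among the last to be switched on during reprogramming. Pluripotent mouse cells also transcribe a set of germline genes, among them meiotic genes whose promoters are held silent in somatic cells by DNA methylation and by repressors that bind E-box motifs, whereas fibroblasts under reprogramming first acquire epithelial features in a mesenchymal-to-epithelial transition. GFP from 1 allele reports that the *Nanog* locus is active, not how much NANOG protein a cell holds.

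Upstream sequences are shown for the gene that drives the reporter and for the 4 germline genes that rose and hold an E-box, to which the values below refer. They come from RefSeq (build GRCm38.p6), which had an entry on the same chromosome and strand for 10795 of the 15630 genes tested, and each is the 250 bases before the gene's start, 5′ to 3′ on the strand of the gene. Capitals mark the composite octamer and SOX element in *Nanog* (chr6:122707315-122707564, plus strand), and the E-box CACGTG in *Sycp3* (chr10:88459337-88459586, plus strand), *Mael* (chr1:166238745-166238994, minus strand), *Stk31* (chr6:49395354-49395603, plus strand), and *Hormad1* (chr3:95559427-95559676, plus strand).
Nanog: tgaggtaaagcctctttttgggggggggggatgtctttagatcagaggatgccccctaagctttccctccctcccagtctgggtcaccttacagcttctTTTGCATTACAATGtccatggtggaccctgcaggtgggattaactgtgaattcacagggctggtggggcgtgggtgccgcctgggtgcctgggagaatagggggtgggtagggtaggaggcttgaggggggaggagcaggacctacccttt
Sycp3: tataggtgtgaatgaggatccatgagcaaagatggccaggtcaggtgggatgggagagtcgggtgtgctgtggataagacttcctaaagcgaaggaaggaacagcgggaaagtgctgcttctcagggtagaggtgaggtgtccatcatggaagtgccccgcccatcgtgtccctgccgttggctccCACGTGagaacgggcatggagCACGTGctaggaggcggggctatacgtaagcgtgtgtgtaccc
Mael: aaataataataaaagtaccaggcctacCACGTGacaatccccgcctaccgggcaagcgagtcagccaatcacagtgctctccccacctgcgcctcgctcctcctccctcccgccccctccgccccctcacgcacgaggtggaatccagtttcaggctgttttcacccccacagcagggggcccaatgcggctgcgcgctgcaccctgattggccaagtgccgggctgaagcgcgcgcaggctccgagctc
Stk31: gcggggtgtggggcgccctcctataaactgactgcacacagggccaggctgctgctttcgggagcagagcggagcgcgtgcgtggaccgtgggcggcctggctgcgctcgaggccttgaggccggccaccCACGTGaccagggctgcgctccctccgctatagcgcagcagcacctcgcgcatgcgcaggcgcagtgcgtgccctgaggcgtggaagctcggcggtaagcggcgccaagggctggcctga
Hormad1: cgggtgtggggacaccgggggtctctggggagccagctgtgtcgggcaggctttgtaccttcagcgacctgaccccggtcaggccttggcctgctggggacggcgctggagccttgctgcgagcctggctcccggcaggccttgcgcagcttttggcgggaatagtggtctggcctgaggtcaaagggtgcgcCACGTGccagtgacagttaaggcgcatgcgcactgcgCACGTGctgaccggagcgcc

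The composite element, searched on both strands as CATTGTNATGCAAA, lies from base -151 to base -138 before the *Nanog* start and was found in 1 of the 10795 stretches. It holds the first bases of the octamer ATGCAAAT, which was found in 1.42% of all stretches, 2.79% of the 323 stretches of genes that rose in 3NG+ cells, and 2.56% of the 352 of genes that fell. CACGTG was present in 4 of the 6 germline genes that rose, *Sycp3*, *Mael*, *Stk31*, and *Hormad1*, with 2 copies each in *Sycp3* and *Hormad1*, and it was not found in the stretches of *Dazl* and *Rpl10l*. The 18 germline genes tested but not called were not counted apart. Whether these letters go with the rise or with the germline list was therefore not tested. It was present in 1 of the 17 stretches of naive and late pluripotency genes that rose, that of *Gbx2*. Among all stretches 8.41% held CACGTG, as did 8.67% of those of risen genes and 4.83% of those of fallen genes. The CCAAT letters were in 36.6% of all stretches, 44.6% of those of risen genes, and 30.7% of those of fallen genes, and TATAAA was in 6.97%, 7.43%, and 6.82%. The number of CpG sites per stretch had a median of 15 over all genes, 12 over risen genes, and 15 over fallen genes, and ranged from 8 to 26 in the 6 germline genes. These counts are descriptions of letters in a fixed window and were not tested.

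The OKMS libraries had 4200870 to 11206126 reads on transcripts in 3NG- cells and 1429717 to 7929689 in 3NG+ cells, so that 3 reads correspond to 0.268 to 0.714 CPM (reads of a gene scaled to a common library total, as counts per 1e6 reads on transcripts) and 0.378 to 2.10 CPM. The sources describe no molecular identifiers, so intervals and floors computed from reads account for counting error alone. A pair of libraries stood apart from its group. 3NG- replicate 3 correlated with the other 3NG- libraries at r = 0.892 and 0.864 across genes (replicates 1 and 2 with each other at 0.929). Its correlation with 3NG+ replicate 3 was 0.895, and its highest was with OKMS E-CAD+ 2NG- replicate 3, at 0.9235. That 2NG- library correlated with 3NG+ replicate 3 at 0.9015. Whether libraries numbered 3 share a culture or batch was not tested. 3NG+ replicate 2, the library with the fewest reads, correlated with the other 3NG+ libraries at 0.854 and 0.858 (those with each other at 0.927). Calls that changed without them are listed below the counts of called genes. Summed levels of 10 pluripotency markers were 1548 to 5342 CPM in 3NG- and 14488 to 16198 CPM in 3NG+ libraries, against 17022 to 17562 CPM in iPSCs -dox. Summed levels of 10 fibroblast markers were 164 to 292 CPM and 158 to 366 CPM, against 3144 to 4001 CPM in OKMS MEFs. Summed levels of 10 macrophage markers ran from 30.6 to 397 CPM and from 45.9 to 767 CPM, with the highest value in 3NG+ replicate 2, in which the lysozyme gene *Lyz2* had 683 CPM against 56.1 and 29.2 CPM in the others, and the part of other cells in the results was not tested. In libraries made from pools of cells, fewer cells that express a gene and less RNA per cell cannot be told apart. Neither the labels nor the methods say that the libraries came from separate cultures, so p-values measure the spread between these samples only.

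The sort was checked on its own genes. *Nanog* transcripts were at 20.3, 17.9, and 45 CPM in the 3NG- libraries and at 90, 81.8, and 97.3 CPM in the 3NG+ libraries (log2 fold change 1.91 ± 0.47 (SE), FDR = 0.011), and the groups did not overlap. The call was lost without 3NG- replicate 1 (FDR = 0.0825) or 3NG- replicate 2 (FDR = 0.0915), with log2 fold changes of 1.69 and 1.68. *Cd44*, the hyaluronan receptor that the gate requires to be low on the surface, was at 135, 125, and 9.18 CPM in 3NG- cells and at 2.9, 28, and 1.72 CPM in 3NG+ cells (log2 fold change -3.31 ± 0.82 (SE), FDR = 0.011). 3NG- replicate 3 lay below 3NG+ replicate 2, so the groups overlapped. The *Cd44* call was lost without replicate 1 or 2 of 3NG- cells or replicate 1 or 3 of 3NG+ cells (FDR = 0.0543 to 0.101) and with the 6 libraries alone (FDR = 0.109), its log2 fold change staying at -2.62 or below. *Cdh1*, which encodes E-CAD, was at 144, 137, and 147 CPM and 149.6, 106, and 151 CPM (FDR = 0.9), and *Icam1* at 12.8, 23.8, and 5.18 CPM and 9.46, 4.2, and 14.2 CPM (FDR = 0.86). Neither passed the test, and both groups had been gated alike on these markers.

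Between OKMS 3NG- and 3NG+ cells 979 genes changed at a false discovery rate (FDR, edgeR's quasi-likelihood test with Benjamini-Hochberg adjustment) of at most 0.05, which is 6.26% of the genes tested. Of these, 478 (3.06%) rose and 501 (3.21%) fell in 3NG+ cells, with median log2 fold changes of 1.62 and -1.94 against -0.06 over all genes tested, and 199 rose and 239 fell at least 4-fold. The libraries of the groups did not overlap for 3459 genes (22.1%), of which 1029 (6.58%) were higher and 2430 (15.5%) lower in 3NG+ cells, and 818 of the called genes were among them. Overlap was judged on CPM, which are scaled to library totals without the normalization of the test. On that scale the median over all genes tested was 6.83 to 8.92 CPM in 3NG- and 5.58 to 6.05 CPM in 3NG+ libraries. The part of this shift in the excess of lower genes was not tested. Without 3NG- replicate 3 the number of calls was 1285, and without both libraries that stood apart it was 1251, with 378 of the 478 rises and 391 of the 501 falls retained. Leaving out any of replicates 1 or 2 of 3NG- cells or replicates 1 or 3 of 3NG+ cells lowered the count to between 353 and 621, and a call in the opposite direction arose under none of these settings. Of 150 called genes that met the rules for description, 60 were called in each of the 6 fits that left out 1 library. The calls of 71 and 69 were lost without 3NG- replicates 2 and 1, of 68 and 47 without 3NG+ replicates 1 and 3, and of 24 and 12 without 3NG+ replicate 2 and 3NG- replicate 3. Without both of the last, 19 were no longer called, *Csrp1*, *Fabp3*, *Fgfr1*, *Furin*, *Gbx2*, *H19*, *Hsp90aa1*, *Jam2*, *Oas1a*, *Pcsk6*, *Pim3*, *Prdx2*, *Pzp*, *Rabif*, *Rbm3*, *Rps21*, *Smad1*, *Tcf7l2*, and *Uqcr10*, whereas *Dnmt1*, *Dppa3*, and *Utf1* were then called as higher and *Myc* as lower in 3NG+ cells. The number of the 6 fits in which a gene's call was lost is given with the genes as "lost in 2 of 6". Counts of called list members below are to be read beside the 3.06% of all genes tested that rose and the 3.21% that fell. No list was tested as a set.

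**Figure D1:**
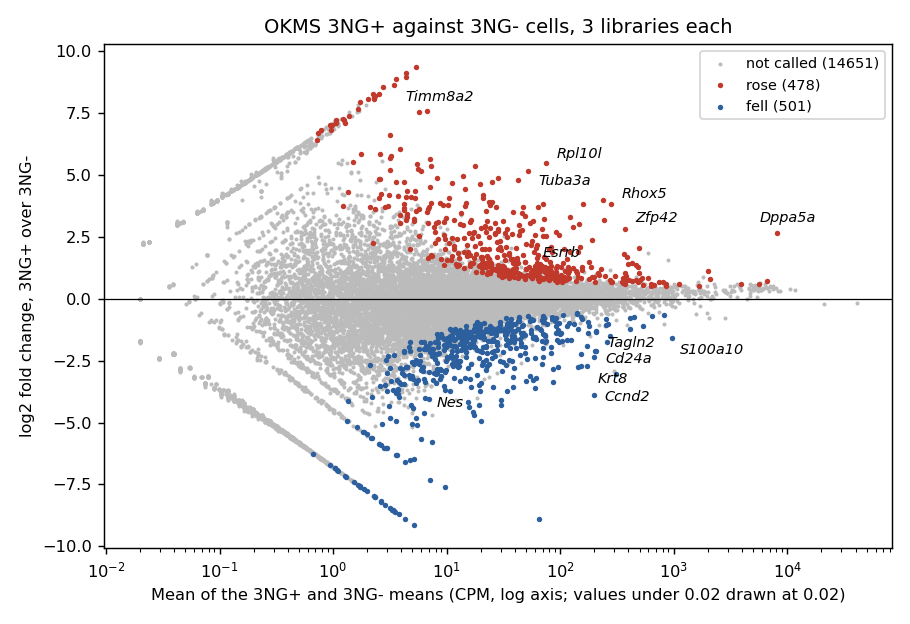
Log2 fold change of each of the 15630 genes tested (3NG+ over 3NG-, vertical axis) against the mean of the group means in CPM (log axis); each point is a gene, in red if it rose, in blue if it fell, and in grey if it was not called. The called genes spread to both sides at all levels, *Dppa5a* lies at the far right of the risen genes, and the straight rows of points at the left are genes with 0 or few reads in 1 group, whose fitted fold change depends on the model's prior count.

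Of 21 transcription factors of naive pluripotency 11 rose and 10 were not called, with a median log2 fold change of 1.77. *Zfp42* (REX1), a zinc finger marker of naive ESCs, was at 78.6, 62.1, and 171 CPM in 3NG- and at 780.4, 587, and 539 CPM in 3NG+ libraries, a 7.01-fold rise (log2 fold change 2.81 ± 0.44 (SE), FDR = 5.2e-05). *Esrrb*, an orphan nuclear receptor and direct NANOG target, was at 18, 17.9, and 27.1 CPM and 90.2, 88.1, and 98.9 CPM (log2 fold change 2.35 ± 0.38 (SE), FDR = 0.00011). For both genes every 3NG+ library lay above every 3NG- library, and 3NG- replicate 3 was the highest of its group. *Tbx3*, a T-box factor of the LIF-dependent network, rose 13.6-fold from 3.21, 2.14, and 1.18 CPM to 33.8, 24.5, and 23 CPM (log2 fold change 3.77 ± 0.52 (SE), FDR = 8.7e-06). *Tcl1*, a coactivator of AKT kinases, rose 11.2-fold from 12.7, 5.47, and 7.06 CPM to 90.3, 104, and 60.5 CPM (log2 fold change 3.48 ± 0.54 (SE), FDR = 6.7e-05). *Klf2*, a Krüppel-like factor that acts beside the *Klf4* of the cassette, was at 17.8, 10, and 31.3 CPM and 78.8, 87.4, and 74.7 CPM (log2 fold change 2.22 ± 0.42 (SE), FDR = 0.00075). These 5 genes were called under every setting tried. The other members that rose were *Nr0b1* (log2 fold change 1.77), *Zfp57* (1.30), *Tcea3* (2.17), *Etv5* (1.46), *Gbx2*, and *Rex2*. *Gbx2* rested on 3 reads in 3NG- and 41 in 3NG+ cells, a 16.4-fold ratio with a 95% counting interval of 5.24 to 82.9. Only 0.72% of the reads of *Rex2* and 48% of those of *Etv5* had a unique position, so near-identical copies cannot be told apart there. The calls of *Nr0b1*, *Zfp57*, and *Tcea3* were lost in 2 of 6 and that of *Gbx2* in 4 of 6. *Tfcp2l1* was at 20.4, 11.4, and 37.4 CPM and 59.3, 39.9, and 63 CPM without passing the test (FDR = 0.074).

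Of 24 genes listed here as late pluripotency genes 13 rose and 11 were not called, with a median log2 fold change of 1.58. Not every member is silent in fibroblasts, since the list summed to 2711 to 3411 CPM in OKMS MEFs. *Dppa5a*, which encodes an RNA-binding protein of pluripotent cells, was at 1837, 1271, and 4448 CPM in the 3NG- libraries and 14019, 14653, and 12955 CPM in the 3NG+ libraries, a 6.26-fold rise (log2 fold change 2.65 ± 0.44 (SE), FDR = 0.00012). Levels in the 2 iPSC -dox libraries were 14768 and 14758 CPM. *Dppa2* rose 6.77-fold, from 6.87, 4.52, and 28 CPM to 80.1, 71.3, and 77 CPM, and its partner *Dppa4* rose 7.58-fold, from 21.9, 16.9, and 63.8 CPM to 261, 230.1, and 187 CPM (FDR = 0.00071 and 0.00055). They lie side by side on chromosome 16 and encode chromatin-associated SAP-domain proteins, and 12.9% of the reads of *Dppa4* had a unique position. *Fbxo15*, a direct OCT4 and SOX2 target, was at 23.9, 22.6, and 47.8 CPM and 222, 135, and 132 CPM (log2 fold change 2.59 ± 0.37 (SE), FDR = 2e-05). *Rhox5*, an X-linked homeobox gene, rose 14.4-fold, from 34.8, 22.1, and 67.1 CPM to 643, 397, and 507 CPM (log2 fold change 3.85 ± 0.48 (SE), FDR = 1.2e-06). *Ooep* (3.32), *Tex19.1* (2.67), *Fgf4* (2.09), *Mybl2* (2.08), *Jam2* (1.77), *Spp1* (1.67), *Tdh* (1.40), and *Apobec3* (1.11, all log2 fold changes) also rose, with calls lost in 2 of 6 for *Tex19.1*, 3 of 6 for *Jam2* and *Tdh*, and 5 of 6 for *Apobec3*. *Dppa3* (STELLA), at 204, 122, and 542 CPM and 1127, 498, and 1085 CPM, did not pass the test (FDR = 0.1). *Utf1* was at 44.3, 17.4, and 57.7 CPM and 100.4, 88.1, and 89.1 CPM and stood just outside the threshold (FDR = 0.0501), and *Sall4* was at 46, 15.9, and 131 CPM and 105, 85.3, and 93.7 CPM (FDR = 0.44), its 3NG- replicate 3 above all 3NG+ libraries. Without 3NG- replicate 3 *Dppa3*, *Utf1*, and *Sall4* were called (FDR = 0.0276, 0.021, and 0.0469). *Lin28a* and *Otx2* showed the same order, with 29.4, 17.9, and 117 CPM against 72, 42, and 100.0 CPM and 28.9, 12.4, and 106 CPM against 96.9, 51.1, and 91.1 CPM. Without 3NG- replicate 3, 17 members of the late list and 12 of the naive list rose, and without both libraries that stood apart 16 and 13 rose and 1 naive factor fell.

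**Figure D2:**
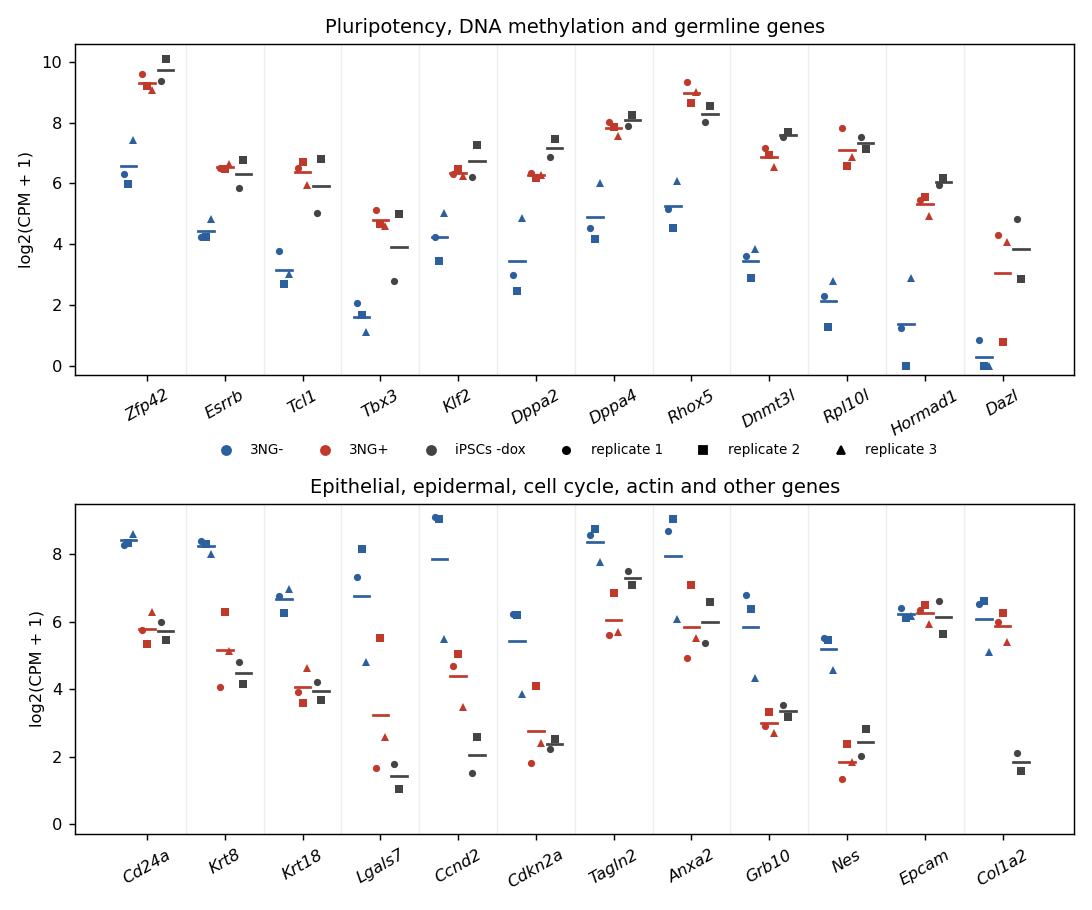
Levels of 24 genes as log2(CPM + 1) in each OKMS 3NG- library (blue), 3NG+ library (red), and iPSC -dox library (dark grey), with symbols for the replicate and a line at the mean. In the upper panel the 3NG+ means lie above the 3NG- means and near the iPSC means, and in the lower panel they lie below, except for *Epcam*. The 3NG- and 3NG+ libraries overlap for *Epcam*, *Col1a2*, and some others of the lower panel, such as *Lgals7* and *Cdkn2a*, and *Col1a2* is lower in iPSCs.

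Of the 4 genes whose coding sequences the cassette also holds, *Pou5f1* (OCT4) and *Sox2* rose and *Klf4* and *Myc* were not called. *Sox2* was at 54.4, 34.3, and 82.9 CPM in 3NG- and 237, 141, and 178 CPM in 3NG+ libraries (log2 fold change 1.91 ± 0.38 (SE), FDR = 0.0013), and *Pou5f1* at 225, 154, and 475 CPM and 535, 499, and 879 CPM (log2 fold change 1.36 ± 0.34 (SE), FDR = 0.011). The *Pou5f1* call was lost without 3NG- replicate 1 (FDR = 0.0879), 3NG- replicate 2 (FDR = 0.123), or 3NG+ replicate 3 (FDR = 0.0828) and with the 6 libraries alone (FDR = 0.075), whereas *Sox2* was called in each of these fits. *Klf4* was at 43, 35.9, and 16.5 CPM and 15.4, 16.8, and 25.6 CPM (FDR = 0.47), and *Myc* at 63.2, 59.8, and 13.7 CPM and 12.2, 28.7, and 15.6 CPM (FDR = 0.14). *Myc* was called as lower in 3NG+ cells once 3NG- replicate 3, whose level lay among those of the 3NG+ libraries, was left out (FDR = 0.0253). How many of these reads came from the transgene was not measured.

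Several chromatin regulators also rose. Of 12 DNA methylation genes tested, 5 rose, *Dnmt3l*, *Dnmt3a*, *Uhrf1*, *Tet1*, and *Hells*, and 7 were not called (median 0.69). *Dnmt3l*, the catalytically inactive partner of the de novo methyltransferases, rose 13.2-fold from 11.2, 6.43, and 13.2 CPM to 143, 120.3, and 91.6 CPM (log2 fold change 3.72 ± 0.58 (SE), FDR = 5.2e-05). *Dnmt3a* was at 34.5, 23.8, and 65.4 CPM and 119, 90.9, and 119 CPM (log2 fold change 1.62 ± 0.41 (SE), FDR = 0.012), while *Dnmt3b* was at 109.6, 44.3, and 298 CPM and 181, 127, and 252 CPM and overlapped (FDR = 0.65). The maintenance methyltransferase gene *Dnmt1* was at 89.1, 63.3, and 102 CPM and 107, 93.7, and 112 CPM (FDR = 0.13), and was called as higher without 3NG- replicate 3 (FDR = 0.0473). *Tet1*, which encodes a 5-methylcytosine dioxygenase, was at 32.8, 21.4, and 46.6 CPM and 115, 58.8, and 99.6 CPM (log2 fold change 1.67 ± 0.43 (SE), FDR = 0.015). The call of *Dnmt3a* was lost in 2 of 6, and those of *Uhrf1* and *Tet1* in 3 of 6. Of 12 genes of polycomb repressive complex 2, the writer of H3K27 methylation, *Jarid2* (1.34), *Mtf2* (1.29), and *Eed* (0.95) rose and 9 were not called (median 0.76). Of 16 H3K9 methylation genes, *Setdb1* (0.97), *Trim28* (1.05), and *Kdm3a* (1.19) rose and *Suv39h1* (-1.98) fell. *Kdm3a* encodes an H3K9 demethylase and the others act in H3K9 methylation, and calls were lost in 5 of 6 for *Kdm3a*, 3 of 6 for *Mtf2*, 2 of 6 for *Eed* and *Setdb1*, and 1 of 6 for *Suv39h1*.

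Germline genes had the highest median of the lists, 2.47 over 24 members tested (2.23 with genes at 0 in 1 group set at their bound). Of the 24, 6 rose and 18 were not called, where 3.06% of all genes tested rose. *Rpl10l*, a testis-expressed copy of a ribosomal protein gene, was at 3.93, 1.43, and 5.89 CPM in 3NG- and at 227, 94.4, and 115 CPM in 3NG+ libraries, a 44.9-fold rise (log2 fold change 5.49 ± 0.47 (SE), FDR = 4e-10). *Hormad1*, which encodes a meiotic chromosome axis protein, was at 1.34, 0, and 6.36 CPM and 42.9, 46.2, and 29.5 CPM (log2 fold change 4.21 ± 0.67 (SE), FDR = 0.00011). *Stk31* was at 0 reads in each of the 3NG- libraries and at 10.7, 1.4, and 4.29 CPM in the 3NG+ libraries, at least 46.9-fold higher against a floor of 3 reads over the 3NG- group. Both genes carry the E-box shown above. *Mael*, of the piRNA pathway, was at 0 reads in 3NG- cells and at 4.04, 0, and 6.29 CPM in 3NG+ cells, at least 30.5-fold higher, and its 0 in 3NG+ replicate 2 lies under that library's floor of 2.10 CPM. *Dazl*, a germ cell RNA-binding protein gene without a CACGTG in its window, was at 0.803, 0, and 0 CPM and 18.8, 0.699, and 15.7 CPM (log2 fold change 5.17 ± 0.96 (SE), FDR = 0.00096), the low value again being replicate 2. *Sycp3*, of the synaptonemal complex, was at 12.8, 7.62, and 21.7 CPM and 97.9, 73.4, and 48.1 CPM (log2 fold change 2.59 ± 0.68 (SE), FDR = 0.016) and lost its call in 3 of the 6 fits that left out 1 library. Without both libraries that stood apart 10 germline genes rose.

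The largest rises among genes with at least 10 CPM in 3NG+ cells also included genes known from germ cells. Besides *Rpl10l*, the 15 held *Timm8a2*, *Khdc3*, *Dusp27*, *Sohlh2*, *Fkbp6*, *Tuba3a*, *Usp26*, *Fmr1nb*, *Cox7b2*, *Rhox13*, *Rex2*, *Calcoco2*, *Pzp*, and *Snora26*. *Tuba3a*, a testis alpha-tubulin gene, was at 2.05, 0.714, and 7.3 CPM and 156, 83.9, and 60.4 CPM (log2 fold change 5.18 ± 0.57 (SE), FDR = 1.3e-07). *Sohlh2*, a helix-loop-helix factor of early germ cells, was at 0, 0, and 1.41 CPM and 19.5, 16.1, and 6.29 CPM (log2 fold change 5.38 ± 1.01 (SE), FDR = 0.00096). *Fkbp6*, needed for meiosis and piRNA loading, was at 0, 1.19, and 0 CPM and 6.94, 14, and 11.4 CPM (log2 fold change 5.25 ± 1.15 (SE), FDR = 0.0043), and its upstream stretch was the only one with CACGTG among the 13 of these 15 genes that had an entry, against 8.41% of all stretches. The X-linked genes *Fmr1nb*, *Rhox13*, and *Usp26*, all known from the testis, rose with log2 fold changes of 4.81, 4.69, and 4.88. *Fmr1nb* was at 4.28, 0.476, and 4.94 CPM and 84.9, 93.7, and 68.7 CPM (FDR = 1.2e-07). On the whole X chromosome 24 genes rose and 23 fell of 592 tested, against 3.06% and 3.21% of all genes tested, and the difference was not tested. *Timm8a2*, a retrocopy of a mitochondrial import gene, had 1 read over the 3NG- group and 223 over the 3NG+ group, a 268-fold ratio with a 95% counting interval of 47.6 to 10636. No read of *Snora26* had a unique position. All of them and *Rpl10l* but *Pzp* and *Snora26* were called under every setting tried.

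Two-cell-like cells, which resemble the cleavage-stage embryo in expressing *Zscan4* genes, arise at a low rate in ESC cultures. Of 13 two-cell-like genes tested only *Gm5662* rose, with 0 reads in 3NG- cells and 7.57, 10.5, and 2.43 CPM in 3NG+ cells, against 342 and 40.3 CPM in iPSCs -dox, and 0.75% of its reads had a unique position.

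Of 34 epithelial genes tested, 6 fell in 3NG+ cells, the keratin genes *Krt8*, *Krt18*, and *Krt19*, the desmosome genes *Dsp* and *Pkp3*, and the claudin gene *Cldn3*. The other 28 were not called, the keratin gene *Krt7* and the desmosome genes *Dsg2*, *Dsc2*, *Pkp2*, and *Jup* among them, and the median was -0.74. *Krt8*, the type II keratin of simple epithelia, was at 338, 316, and 255 CPM in 3NG- and 15.9, 76.9, and 34.1 CPM in 3NG+ libraries, 6.65-fold lower (log2 fold change -2.73 ± 0.49 (SE), FDR = 0.00043). Its partner *Krt18* was at 107, 75.7, and 126 CPM and 14.2, 11.2, and 23.8 CPM (log2 fold change -2.39 ± 0.43 (SE), FDR = 0.00045). *Dsp*, which encodes the desmosomal plaque protein desmoplakin, was at 165, 150.0, and 45.9 CPM and 7.69, 32.9, and 14.7 CPM (log2 fold change -2.62 ± 0.58 (SE), FDR = 0.0041). *Krt8* and *Krt18* were called in each of the 6 fits, and calls were lost in 1 of 6 for *Dsp*, 3 of 6 for *Krt19* and *Cldn3*, and 4 of 6 for *Pkp3*. The adhesion genes *Epcam*, at 83.7, 67.6, and 70.6 CPM and 81.2, 90.2, and 59.8 CPM (FDR = 0.77), and *Cdh1* were not called. The summed level of 8 epithelial markers, 912 to 1073 CPM in 3NG- libraries and 461 to 502 CPM in 3NG+ libraries, moved with this group. *Cd24a*, which encodes a surface glycoprotein, fell from 311, 325, and 389 CPM to 53.2, 39.2, and 77.3 CPM, 5.14-fold lower (log2 fold change -2.36 ± 0.39 (SE), FDR = 0.00011). The endothelial and pluripotency surface gene *Pecam1* rose (3.05, lost in 3 of 6), and 9 of the 11 pluripotency surface genes tested were not called.

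Epidermal genes had a median of -2.57 over 18 tested, of which *Krt14*, *Krt17*, *Perp*, *Lgals7*, and *Anxa8* fell and 13 were not called. *Lgals7*, a galectin of stratified epithelia, was at 159.9, 283, and 26.8 CPM in 3NG- and at 2.14, 44.8, and 5.01 CPM in 3NG+ libraries (log2 fold change -3.35 ± 0.65 (SE), FDR = 0.001). *Krt17* was at 148, 170.2, and 7.77 CPM and 3.66, 28, and 1.29 CPM (log2 fold change -3.61 ± 1.02 (SE), FDR = 0.025), and the basal keratin gene *Krt14* at 11.8, 19, and 0 CPM and 0 reads, at least 58.8-fold lower. 3NG- replicate 3 was the lowest 3NG- library for each of these genes, within or below the range of the 3NG+ libraries. The summed level of 6 epidermal markers was 77.2 to 601 CPM in 3NG- libraries and 30.9 to 127 CPM in 3NG+ libraries, and *Trp63*, the defining factor of basal keratinocytes, was at 0 in all 6 libraries. Between 1 and 2 of these 18 genes fell when replicate 1 or 2 of 3NG- cells or replicate 1 or 3 of 3NG+ cells was left out, and 8 fell without both libraries that stood apart. *Lgals7* was called in each of these fits, and calls were lost in 2 of 6 for *Perp*, 4 of 6 for *Krt17* and *Anxa8*, and 5 of 6 for *Krt14*.

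Some cytoskeletal and adhesion genes fell as well. Of 35 actin cytoskeleton and contractile genes 7 fell and 28 were not called (median -0.70), among them *Tagln2*, a calponin family gene, at 377, 433, and 219 CPM and 48, 115, and 51.4 CPM, 4.3-fold lower (log2 fold change -2.10 ± 0.34 (SE), FDR = 0.00011). *Tpm4* (-1.75), *Tpm1* (-1.65), *Csrp1* (-1.24), *Actg2* (-4.10), *Anxa1* (-1.95), and *Anxa2* (-2.13) were the others, with calls lost in 4 of 6 for the last 4 and 1 of 6 for *Tpm1*. The smooth muscle actin gene *Acta2* was at 104, 121, and 28.5 CPM and 14, 75.5, and 19.9 CPM (FDR = 0.42). *S100a10*, the annexin A2 partner and among the called genes with the most reads, was at 1549, 1619.7, and 1336 CPM and 265, 601, and 457 CPM (log2 fold change -1.58 ± 0.30 (SE), FDR = 0.00078), without overlap. Of 22 integrin and laminin genes 6 fell, among them *Itgb4*, *Itgb5*, *Lama1*, *Lama4*, and *Lamb1*, and 16 were not called (median -0.91), with calls of these 5 lost in 3 to 5 of 6. Without 3NG- replicate 3, 12 actin genes and 5 integrin and laminin genes fell.

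Of 43 fibroblast and mesenchymal genes 1 fell and 42 were not called (median -0.12 against -0.06 over all genes). That count is near the 3.21% of all genes tested that fell. The gene was *S100a6*, which went from 345, 405, and 55.8 CPM to 27.2, 61.6, and 22.2 CPM (log2 fold change -2.73 ± 0.61 (SE), FDR = 0.0041). *Col1a2*, a collagen I gene, was at 90.9, 97.6, and 33.7 CPM in 3NG- and at 62.8, 76.2, and 41.1 CPM in 3NG+ libraries (FDR = 0.94), against 724 and 987 CPM in OKMS MEFs and 3.3 and 1.96 CPM in iPSCs -dox. DESeq2's Wald test and each fit that left out a library also called *S100a6* and no other member of the list, and without the filter on low counts 9 fell and 4 rose. Wild-type MEFs were mixed into these cultures, and their share in the sorted cells was not tested.

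Cell cycle inhibitors and D cyclins were among the genes that fell. Of 19 genes of the *Ink4*-p53 barrier and the G1 cyclins, *Cdkn1a*, *Cdkn2a*, *Ccnd1*, and *Ccnd2* fell and 15 were not called. *Ccnd2*, the cyclin D2 gene, fell 15-fold, from 548, 527, and 43.6 CPM to 25, 32.2, and 10 CPM (log2 fold change -3.90 ± 0.65 (SE), FDR = 0.00012), and 3NG- replicate 3 lay nearer to the 3NG+ libraries than to its own group. *Cdkn2a*, the locus of INK4A and ARF, was at 73.6, 72.8, and 13.7 CPM and 2.52, 16.1, and 4.29 CPM (log2 fold change -2.92 ± 0.68 (SE), FDR = 0.006). *Cdkn1a*, the p21 gene, was at 517, 601, and 109 CPM and 88.4, 133, and 98.7 CPM (log2 fold change -1.74 ± 0.43 (SE), FDR = 0.01). *Ccnd2* was called in each of the 6 fits, and calls were lost in 2 of 6 for *Cdkn2a*, 3 of 6 for *Cdkn1a*, and 5 of 6 for *Ccnd1*. Of 28 DNA replication and mitosis genes *Mcm2* (0.85), *Mcm6* (0.85), and *Cdt1* (1.02) rose and 25 were not called (median 0.39). This count depended on single libraries: it was 11 without 3NG- replicate 3, 2 without replicate 2 or 3 of 3NG+ cells, and 0 without replicate 1 or 2 of 3NG- cells or replicate 1 of 3NG+ cells, and DESeq2 called 6.

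Several imprinted genes fell. Of 24 tested, *Meg3*, *Rian*, *H19*, and *Grb10* fell and 20 were not called (median -0.53). *Grb10*, a growth factor receptor adaptor gene, was at 110.4, 81.4, and 19.07 CPM in 3NG- and at 6.56, 9.09, and 5.58 CPM in 3NG+ libraries, 8.99-fold lower (log2 fold change -3.17 ± 0.48 (SE), FDR = 3.7e-05). *Meg3* and *Rian*, maternally expressed noncoding RNAs of a single domain on chromosome 12, fell with log2 fold changes of -1.39 and -1.28. *Meg3* was at 159, 141, and 116 CPM and 42.4, 48.3, and 47.4 CPM (FDR = 0.0075), and both 3NG+ and 3NG- cells lay below the 251 and 397 CPM of OKMS MEFs. The call of *Meg3* was lost in 1 of 6 and those of *Rian* and *H19* in 4 of 6, and that of *Grb10* was kept in all 6.

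Calls in the signaling and remaining lists stand beside the 6.26% of all genes tested that were called, and the lists were not tested as sets. *Fgf4* and *Etv5* rose and *Fgfr1* (-1.52, lost in 2 of 6) fell of 17 FGF-ERK genes. *Pcsk6* (1.62) rose and *Furin* (-2.03) fell of 16 nodal pathway genes; both encode proprotein convertases, and they lost their calls in 6 and 5 of 6. *Pim3* (1.00, lost in 3 of 6) and *Gbx2* rose of 15 LIF-STAT3 genes, *Tcf7l2* (-1.55, lost in 2 of 6) and *Ccnd1* (-1.37, lost in 5 of 6) fell of 16 Wnt targets and TCF factors, *Cyr61* (-1.77, lost in 4 of 6) fell of 17 TGF-beta genes, and *Smad1* (-2.05, lost in 4 of 6) fell of 15 BMP and *Id* genes. *Jun* (-2.11, lost in 3 of 6) and *Fosl2* (-4.42, lost in 3 of 6) fell of 12 AP-1 factors, whose median was -2.25. *Dnmt3a* rose and *Krt18* fell of 16 formative and primed genes, *Pfkp* (1.70, lost in 1 of 6) and *Ldhb* (1.79, lost in 4 of 6) rose of 26 glycolysis genes, and *Oas1a* (3.53) rose and *B2m* (-1.39) fell of 20 interferon-stimulated genes. The *Oas1a* call was lost in all 6 fits that left out 1 library (FDR = 0.0559 to 0.197), and that of *B2m* without replicate 1 or 2 of 3NG- cells or replicate 1 or 3 of 3NG+ cells (FDR = 0.0969 to 0.234). *Lama1*, *Lamb1*, and *Col4a1* (-2.62, lost in 2 of 6), which encode basement membrane proteins, fell of 16 primitive endoderm genes. *Elf5* fell of 16 trophoblast genes and *Nes* (-3.71) of 11 neural genes. Of 10 macrophage, 7 endothelial, and 10 stress and RNA quality genes edgeR's quasi-likelihood test called 0, at an unadjusted p under 0.05 there were 0, 2, and 1, and DESeq2 called only the stress gene *Asns*. The summed level of the endothelial markers was 24.01 to 47.8 CPM in 3NG- and 8.07 to 12.2 CPM in 3NG+ libraries, with *Cdh5* and *Tie1*, which define that cell type, at 0 in both groups.

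The 15 largest falls included lineage and signaling genes at low to moderate levels. *Elf5*, of the trophoblast lineage, was at 8.03, 16.4, and 5.89 CPM and 0, 0.699, and 0 CPM, a 153-fold ratio with a 95% counting interval of 27.1 to 6078. *Nes*, an intermediate filament gene of neural progenitors, was at 45.2, 42.8, and 22.6 CPM and 1.51, 4.2, and 2.58 CPM (log2 fold change -3.71 ± 0.64 (SE), FDR = 0.00022). *Dusp14* (-4.71), *Gna14* (-4.39), *Shisa3* (-4.31), *Ano3* (-4.03), *Npnt* (-4.61), *Necab1* (-3.73), *Pde4b* (second locus, -4.00), and *Ccnd2* were also among the 15, with *St3gal6*, *Mras*, *C1qtnf1*, and *Loxl4*, which had 1, 3, 3, and 3 reads over the 3NG+ group. Calls were lost in 1 of 6 for *Npnt* and *St3gal6*, 3 of 6 for *Ano3* and *Shisa3*, 4 of 6 for *Elf5*, *Pde4b*, and *Loxl4*, and 5 of 6 for *Necab1*, and the others named here were called in each fit.

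**Figure D3:**
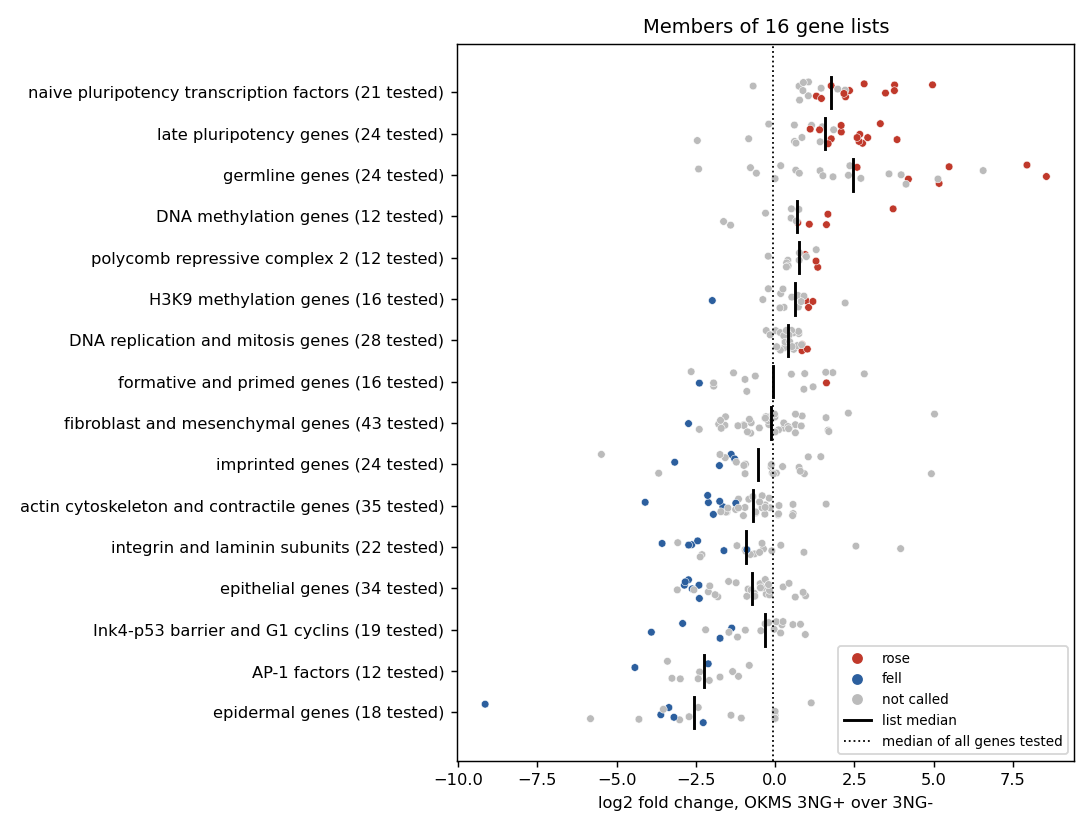
Log2 fold changes (3NG+ over 3NG-, horizontal axis) of the tested members of 16 gene lists, 1 row a list; each point is a gene, in red if it rose, in blue if it fell, and in grey if it was not called, with the list median as a bar and the median of all genes as a dotted line. Medians of the naive, late, and germline lists lie to the right and those of the epidermal and AP-1 lists to the left, and the fibroblast median lies close to the dotted line.

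Among the called genes that took the most reads, those that rose besides *Dppa5a* were *Rps29* (0.72), *Rps21* (0.67), *Rps23* (0.53), *Eif2s2* (1.11), *Hsp90aa1* (0.60), *Cox7c* (0.81), *Atp5j2* (0.61), *Uqcr10* (0.53), and *Fkbp3* (0.62), with log2 fold changes of at most 1.11; most of them serve translation, respiration, or protein folding. *Rbm3* (-0.64), *Prdx2* (-0.68), and *S100a10* fell. In 3NG- libraries 18.5% to 19.3% of transcript reads fell on ribosomal protein genes, and in 3NG+ libraries 21.7% to 22.5%. Unique positions made up 4.39%, 3.68%, and 18.1% of the reads of *Rps29*, *Hsp90aa1*, and *Eif2s2*, so these rises are uncertain. *Dppa5a*, *Eif2s2*, and *S100a10* were called in each of the 6 fits, and calls were lost in 1 of 6 for *Cox7c*, 2 of 6 for *Rps29* and *Rps21*, 3 of 6 for *Atp5j2*, 4 of 6 for *Rps23*, *Hsp90aa1*, *Fkbp3*, and *Prdx2*, 5 of 6 for *Rbm3*, and 6 of 6 for *Uqcr10*.

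The comparison with iPSCs addressed how 3NG+ cells differed from established lines. The 3NG+ cells were sorted from cultures with doxycycline, whereas the iPSCs -dox were kept without it. Differences that go with establishment, cassette induction, or sorting cannot be told apart here. Between OKMS iPSCs -dox and 3NG+ cells 96 genes differed (0.614%), of which 47 (0.301%) were higher and 49 (0.313%) lower in iPSCs. This comparison shares the 3NG+ libraries with the one above, so its values are only set beside it. *Col1a2* was lower in iPSCs (log2 difference -4.53 ± 0.67, FDR = 0.00013). The naive factor *Zfp42* was at 659 and 1082 CPM in iPSCs against 780.4, 587, and 539 CPM in 3NG+ cells (FDR = 0.77), *Rhox5* at 259.6 and 376 CPM against 643, 397, and 507 CPM (FDR = 0.55), and *Krt8* at 27.2 and 16.9 CPM against 15.9, 76.9, and 34.1 CPM (FDR = 0.54). A few genes that rose from 3NG- to 3NG+ cells stood apart from iPSCs. *AI662270*, on chromosome 11, was at 9.64, 6.19, and 23.8 CPM in 3NG-, 109, 77.6, and 98.1 CPM in 3NG+, and 3.09 and 4.81 CPM in iPSC -dox libraries, and at 25.8, 35.4, and 90.6 CPM and 119, 138, and 188 CPM in MKOS 3NG- and 3NG+ cells (iPSC minus 3NG+ log2 difference -4.63 ± 0.81, FDR = 0.0019). The small nucleolar RNA *Snora33* was at 10.6, 9.76, and 19.07 CPM, 110.5, 113, and 82.1 CPM, and 26.8 and 18.7 CPM (log2 difference -2.18, FDR = 0.035). *Crxos1* (first locus), *Rabif*, and *Hnrpdl* were also lower in iPSCs, with log2 differences of -3.70, -1.40, and -0.94. *Hat1*, which encodes a histone acetyltransferase, was higher, at 1084 and 790.2 CPM against 521, 320.3, and 481 CPM (FDR = 0.036). Their rises from 3NG- to 3NG+ cells were called in each of the 6 fits for *AI662270* and *Snora33* and lost in 2 of 6 for *Crxos1*, 3 of 6 for *Rabif* and *Hnrpdl*, and 4 of 6 for *Hat1*. The count fell to 10 without iPSC -dox replicate 1 and rose to 148 without replicate 2, and it was 288 against iPSCs in 2i medium and 362 against TNG OKMS ESCs.

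**Figure D4:**
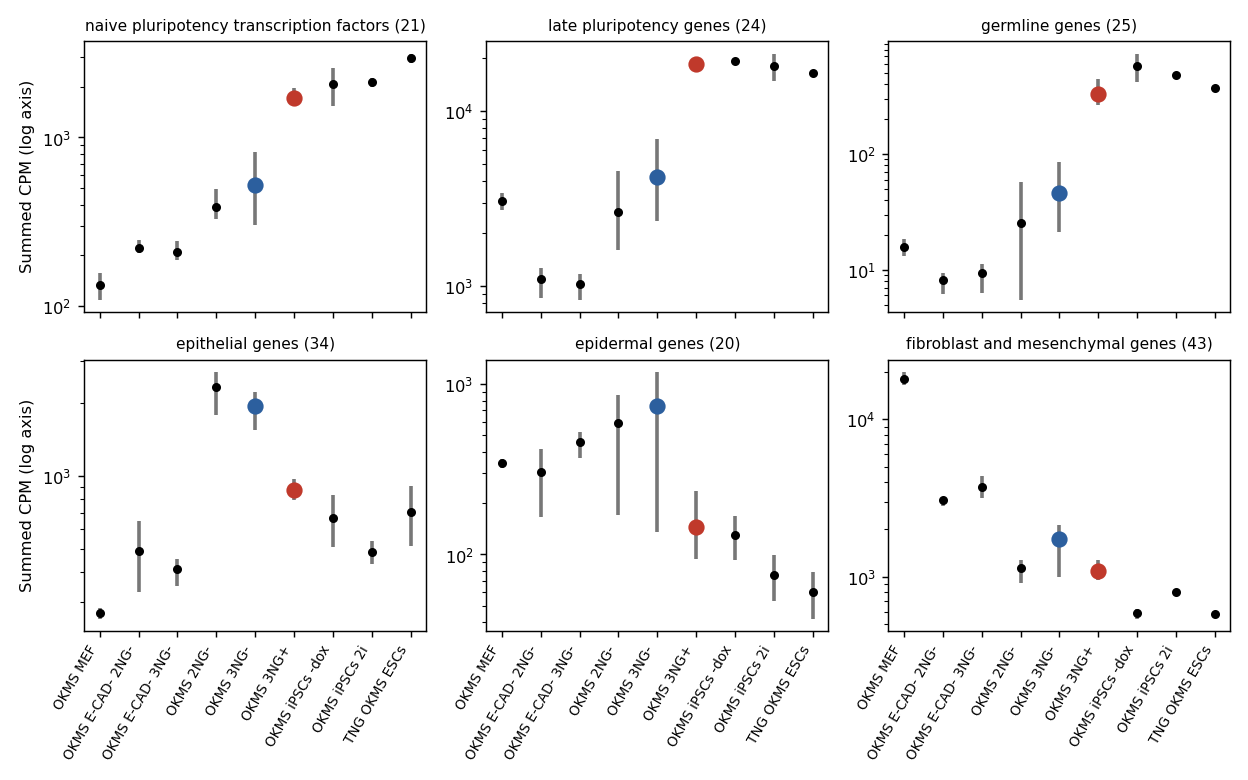
Summed CPM (log axis) of the measured members of 6 lists, with the number of members in brackets, in 9 groups of the OKMS series; points are group means, bars run from the lowest to the highest library (3 for sorted groups, 2 for the others), and 3NG- and 3NG+ cells are drawn larger in blue and red. The germline sum goes from 21.2 to 84.8 CPM in 3NG- to 265 to 449 CPM in 3NG+ cells, the epithelial sum from 1554 to 2212 CPM to 798 to 967 CPM, and the naive and late sums of 3NG+ cells reach the range of iPSCs -dox.

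Summed over their lists, naive factors were at 302 to 815 CPM in 3NG- libraries, 1527 to 1953 CPM in 3NG+ libraries, and 1537 to 2587 CPM in iPSCs -dox, and 328 to 495 CPM in the preceding 2NG- gate. Late pluripotency genes were at 2364 to 6949 CPM, 17777 to 19461 CPM, and 18728 to 19860 CPM in the same order of 3NG-, 3NG+, and iPSC -dox libraries. In both lists the groups of 3NG- and 3NG+ libraries did not overlap, whereas the 3NG+ and iPSC -dox ranges overlapped for both. Germline genes summed to 419 to 737 CPM in iPSCs -dox and epithelial genes to 509 to 831 CPM. A sum is led by the members with the most reads, *Dppa5a* in the late list of 3NG+ cells and iPSCs -dox. In OKMS MEFs the late list summed to 2711 to 3411 CPM. The 10 pluripotency markers, *Dppa5a* among them, summed to 3.67 to 8.17 CPM there. Other members thus led the late sum in MEFs, where it does not measure late activation.

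In MKOS reprogramming the same comparison had fewer calls, 247 genes (1.58%), with 87 (0.557%) higher and 160 (1.02%) lower in 3NG+ cells. These libraries are separate from the OKMS ones. The cassettes differ in both factor order and *Klf4* form, which cannot be told apart in this comparison. Of the 478 genes that rose in OKMS, 445 had a log2 fold change above 0 in MKOS (93.1%, against 45.2% of all genes tested), and of the 501 that fell 462 were below 0 (92.2%, against 52.0%). Their MKOS medians were 0.71 and -0.99, and the 87 and 160 genes called in MKOS had OKMS medians of 1.12 and -1.23. Since each set was chosen on 1 cassette, these medians do not compare the size of the change between the cassettes. Called in the same direction in both cassettes were 55 rises and 70 falls, which is 11.5% of the OKMS rises and 63.2% of the MKOS rises, and 13.97% of the OKMS falls and 43.8% of the MKOS falls. *Rpl10l* (3.40), *Tuba3a* (3.98), *Fmr1nb* (3.11), *Hormad1* (2.88), *Krt18* (-2.49), and *Cd24a* (-2.01, log2 fold changes in MKOS) were called in both. *Zfp42*, by contrast, was at 484, 439.9, and 694 CPM in MKOS 3NG- and 787, 1037, and 859.8 CPM in MKOS 3NG+ cells (FDR = 0.26), and *Dppa5a* at 6353, 7594, and 7928 CPM and 10015, 11154, and 10989 CPM (FDR = 0.38). For both genes MKOS 3NG- cells were above OKMS 3NG- cells in every library, but the difference between the cassettes in the change did not pass the test (FDR = 0.35 and 0.35).

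**Figure D5:**
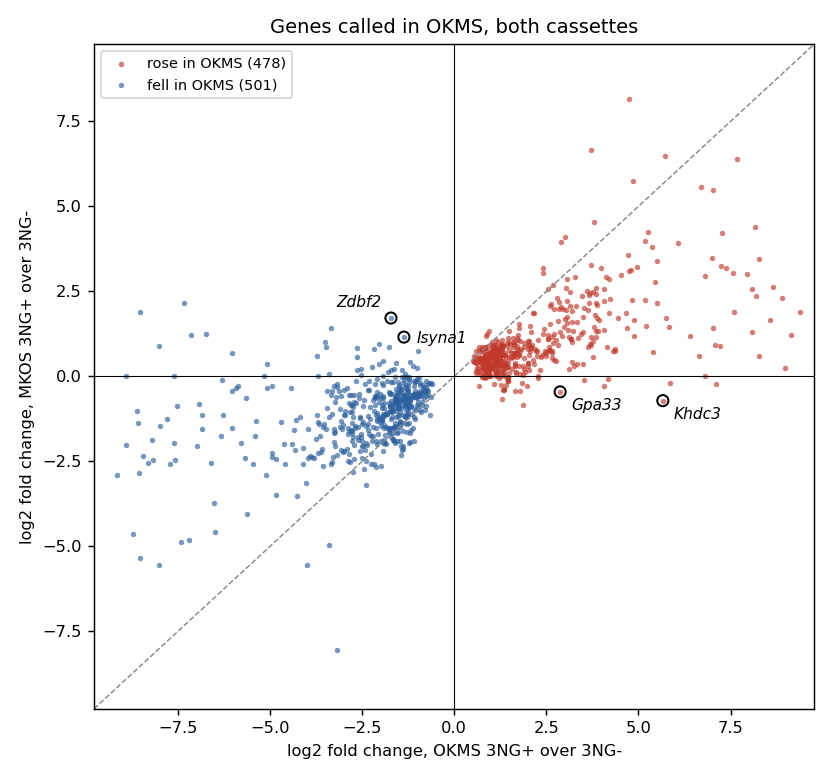
Log2 fold changes from 3NG- to 3NG+ cells in OKMS (horizontal axis) and MKOS (vertical axis) of the genes that rose (red) or fell (blue) in OKMS, with the line of equality dashed. Most points lie in the quadrants of equal sign, their distance from the horizontal and vertical axes being affected by the choice of genes on OKMS, and the 4 circled genes are those whose change differed between the cassettes.

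The change itself differed between the cassettes for 4 genes (0.0256%), with 2 (0.0128%) more positive and 2 (0.0128%) more negative in OKMS, and for 1163 at an unadjusted p under 0.05. *Gpa33*, which encodes a surface antigen of the immunoglobulin superfamily, rose in OKMS from 9.46, 1.67, and 8.24 CPM to 55.1, 28.7, and 40.3 CPM. MKOS 3NG- cells were at 65.2, 56.2, and 108 CPM and MKOS 3NG+ cells at 45.4, 45.2, and 56.4 CPM (difference in log2 fold change 3.33 ± 0.56, FDR = 0.0091). *Khdc3*, an oocyte and ESC gene of the subcortical maternal complex, went from 0.446, 0.238, and 0 CPM to 5.17, 27.3, and 9.87 CPM in OKMS and from 19.3, 24.9, and 108 CPM to 22.3, 19.6, and 38.1 CPM in MKOS (difference 6.38 ± 1.18, FDR = 0.029). For both, MKOS 3NG- cells already had the transcript. *Isyna1*, the inositol-3-phosphate synthase gene, went from 70.3, 95.2, and 45 CPM to 21.6, 26.6, and 23.2 CPM in OKMS and from 39.1, 52.3, and 67.6 CPM to 123, 92.1, and 98.6 CPM in MKOS (difference -2.52 ± 0.45, FDR = 0.011), and it was the one gene called in opposite directions. *Zdbf2*, an imprinted gene on chromosome 1, went from 72.1, 58.1, and 36.7 CPM to 10.1, 18.2, and 16.6 CPM in OKMS and from 4.8, 4.72, and 2.51 CPM to 18.3, 7.7, and 9.97 CPM in MKOS (difference -3.43 ± 0.67, FDR = 0.032). In OKMS the levels of *Isyna1* and *Zdbf2* fell to near or below those of iPSCs -dox, which were at 33.6 and 45.1 CPM and 13.8 and 18.3 CPM. In MKOS *Isyna1* rose (FDR = 0.044) and *Zdbf2* did not pass the test (FDR = 0.057). The next genes by FDR, *Grb10*, *Lima1*, *Ccdc73*, *Fabp3*, *Stk31*, and *Rhox5*, did not pass (FDR = 0.12 for each). Over the 12 fits that left out 1 library the count ran from 0, without MKOS 3NG+ replicate 1 (1081 genes at an unadjusted p under 0.05), to 14, without OKMS 3NG- replicate 3, and DESeq2 called 20. In these 12 fits the call was lost in 2 for *Gpa33*, 4 for *Isyna1*, 6 for *Khdc3*, and 8 for *Zdbf2*.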

How the data were processed

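STRT sequencing, which reads the 5′ ends of transcripts, was carried out on 48 libraries in 20 groups. The authors deposited raw read counts per transcript, not normalized, and the submitters' processing notes name Bowtie 0.12.7 and mm10 (the methods name an earlier mouse build). Start positions in the deposited table matched RefSeq GRCm38 within 500 bases for 99.2% of 20695 shared symbols. Over all transcripts 73.9% of the counted reads had a unique position. Spike-in and repeat rows stayed out of library sizes and tests, and 0 columns of per-sample values were left unmapped.

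Counts were tested with edgeR 4.0.16 (R 4.3.3) by the quasi-likelihood test with TMM scaling and filterByExpr, fitting all libraries with a coefficient per group (common dispersion 0.217), and SE is the absolute log2 fold change divided by the square root of F. CPM values are counts scaled to library totals on transcripts. Calls are at a Benjamini-Hochberg FDR of at most 0.05. DESeq2 1.42.0 was an alternative. On simulated data with 200 of 15210 genes changed 4-fold, edgeR recovered 104 with 7 false calls and DESeq2 124 with 17. Sequences were read from RefSeq with Python 3.11.15.

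The groups compared and the gene lists were chosen with earlier results of these data known. Named were members of 34 lists, the 15 largest rises and falls among called genes whose groups did not overlap and whose higher group averaged at least 10 CPM, the 10 genes with the smallest FDR for the cassette difference, the 10 called genes with the highest CPM in each group, and up to 10 risen genes on each side of iPSCs. Genes with Gm or Rik names outside the lists were counted but not described. In the lists 11 members were not tested and 7 had no row under their symbol. Some genes that met this rule are not reported here.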

Additional observations from a re-analysis of the deposited data

Results flagged for a closer look

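For 4 genes the change from 3NG- to 3NG+ cells differed between the OKMS and MKOS cassettes in edgeR's test of the difference itself. For *Gpa33* the OKMS change exceeded the MKOS change by 3.33 ± 0.56 (SE) on the log2 scale (FDR = 0.0091), and the call was lost in 2 of the 12 fits that left out 1 library. For *Khdc3* the difference was 6.38 ± 1.18 (FDR = 0.029), lost in 6. For *Isyna1* it was -2.52 ± 0.45 (FDR = 0.011), lost in 4, and for *Zdbf2* -3.43 ± 0.67 (FDR = 0.032), lost in 8. Levels in 3NG- cells are part of the difference tested, so they are only set beside it. Each MKOS 3NG- library lay above each OKMS 3NG- library for *Gpa33* and *Khdc3*, and below for *Zdbf2*, while for *Isyna1* they overlapped.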

How the results depend on the processing

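Between OKMS 3NG- and 3NG+ cells, a test against a 2-fold change (glmTreat) called 169 genes (112 higher, 57 lower), DESeq2 1481 (697 and 784), a fit of the 6 libraries alone 428 (262 and 166), and a fit without the filter on low counts 1453, against 979. DESeq2 size factors gave 997. Leaving out 1 library gave 353 (without 3NG- replicate 2) to 1285 (without 3NG- replicate 3), with 414 without 3NG- replicate 1, 448 without 3NG+ replicate 1, and 621 without 3NG+ replicate 3. Distinct list members called numbered 28 under glmTreat, 192 without the filter, 66 with the 6 libraries alone, 142 without both libraries that stood apart, and 51 to 129 with 1 library left out. For the difference between the cassettes the count was 4, and it was 20 with DESeq2, 163 without the filter, 11 with the 12 libraries alone, 20 without both libraries that stood apart, and 0 to 14 with 1 library left out. In MKOS, for alternatives chosen after seeing the data, it was 609 with DESeq2, 887 without the filter, and 56 to 279 with 1 library left out, against 247. Against iPSCs -dox it was 217 with DESeq2, 384 without the filter, 288 with iPSCs in 2i medium, 362 with ESCs, and 10 to 148 with 1 library left out, against 96. Of 2476 alternatives over 175 results on single genes, 1923 kept their direction and side of the threshold, 504 lost the call, 40 gained it, and 9 reversed direction. Those were *Col1a2* (log2 fold change -0.60 without both libraries that stood apart) at 0.033, 0.14, and 0.12 without 3NG- replicate 1, 3NG- replicate 2, or 3NG+ replicate 3, *Icam1* (range with 1 library left out -0.64 to 0.34) at 0.34 and 0.008 without 3NG- replicate 2 or 3NG+ replicate 2, and *Lyz2* (highest 0.84 without 3NG+ replicate 3) at -0.069 with the 6 libraries alone and the replicate block, -2.72 without both libraries that stood apart, -2.18 without 3NG+ replicate 2, and -0.26 without 3NG- replicate 3; none was called as reported. The cause was not tested.

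Deviations from the group means of libraries with the same replicate number correlated at 0.0203, 0.0981, and 0.117. Those of libraries with different numbers correlated at -0.11 to 0.0372, the highest being 3NG- replicate 1 with 3NG+ replicate 2. Whether a replicate number stands for a shared culture, sort, or batch was not tested, and the main fit had no term for it. With the replicate as a block the counts were 1122 for OKMS, 673 for its 6 libraries alone, 422 for MKOS, 6 for the difference, and 89 against iPSCs -dox.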
